A study of Mus musculus with 59 samples.

Results

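The effect of SB-204990 (SB) on the transcriptome of siRNA Acly interfered AML12 hepatocytes (siAcly) was measured by RNA-seq, comparing 3 siAcly libraries treated with SB with the 3 siAcly libraries whose treatment label is No (untreated, Ut). Both groups were chosen by these labels, without reference to any measured value, and make up 6 of the 59 libraries of the series. The siAcly SB cells received the siRNA against Acly at 4 h after seeding and, 24 h later, SB at 10 µM for 16 h. The siAcly Ut cells received the same siRNA at the same time and no inhibitor, and the labels name no vehicle for them. AML12 is an established mouse hepatocyte line derived from mice that carry a transforming growth factor alpha transgene, and all groups were grown with serum, insulin, transferrin, selenium and dexamethasone. The other libraries of these cells were siAcly cells given hydroxycitrate (HC, 1000 µM) or bempedoic acid (Bemp, 30 µM), and control siRNA cells (siC) left untreated or given one of the inhibitors, 3 libraries in each of 8 groups. Libraries are called by the number in their titles: SB 16, SB 17 and SB 85, and Ut 14, Ut 15 and Ut 84. Where 3 values are given for a group, they stand in the order of these numbers.

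ATP citrate lyase (ACLY) cleaves citrate exported from mitochondria into oxaloacetate and acetyl-CoA, the cytosolic and nuclear acetyl-CoA from which fatty acids and cholesterol are built and histones are acetylated. SB is a cell-permeable inhibitor of ACLY, so in siAcly cells it was given to cells in which the mRNA of its target had already been lowered, and the comparison asks which transcripts differ with SB under those conditions. In cells with little acetyl-CoA from ACLY, acetate can be used by acyl-CoA synthetases, and sterol-regulatory element binding proteins raise the genes of sterol and fatty acid synthesis when membrane sterols are low.

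The deposited values were already normalized to library size, so their sums over genes lay between 11.5 and 13.2 M in all 24 AML12 libraries and carry no depth. A rough estimate of depth from the commonest low value was 7.31 to 13.3 M reads in siAcly SB libraries and 12.2 to 14.3 M in siAcly Ut libraries, with SB 85 the lowest. This estimate takes a read to have the same value in every gene of a library, which did not hold, so the depths are uncertain. Hepatocyte and epithelial transcripts were present in all 6 libraries, for example Hnf4a, a hepatocyte transcription factor, at 4421 to 5804 in siAcly SB and 4527 to 5119 in siAcly Ut, and the keratin gene Krt8 at 21877 to 39880 in siAcly SB and 26546 to 46982 in siAcly Ut. Of 12 markers of bile duct cells, 8 were measured well enough to test, with summed values of 20527 to 40377 in siAcly SB and 23764 to 42167 in siAcly Ut. The sums were far lower for markers of fibroblasts and stellate cells (32.2 to 77.9 in siAcly SB, 50.2 to 180.4 in siAcly Ut), endothelial cells (397 to 438 in siAcly SB, 331 to 509 in siAcly Ut) and leukocytes (32.8 to 62.2 in siAcly SB, 30.7 to 130 in siAcly Ut). The defining fibroblast and stellate markers, Lrat, Lum, Col1a2, Col3a1 and Thy1, were listed at 0 in all 6 libraries, as were the endothelial markers Kdr and Lyve1, the bile duct markers Tff3 and Prom1, and the leukocyte markers Adgre1, Clec4f, Cd5l, Cd3e, Ms4a1 and Nkg7.

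The 6 libraries did not group by treatment alone. Over the genes tested, the most alike libraries were SB 17 and Ut 14 (Pearson r of log2 values 0.985) and SB 85 and Ut 84 (r = 0.981), one library of each group, and every other pair had r of 0.970 or less. SB 85 and Ut 84 carry library numbers from the series 81 to 87, while the other 4 carry numbers from the series 1 to 23. The first principal component of the 24 AML12 libraries set the libraries numbered 81 to 87 apart, and the second split the others into libraries above and below 0. SB 16 was above 0 (36.6), while SB 17 (−26.1), Ut 14 (−33.6) and Ut 15 (−3.62) were below, so no siAcly Ut library lay on the side of SB 16 and SB 16 minus Ut 15 crosses these sets. The labels do not name the sets. Ut 15 stood apart from the other 5 on the second component of the 6 libraries and held the highest or the lowest value of the 6 for 51.8% of the genes, and SB 16 did so for 44.8%. Liver transcripts also set SB 16 apart: Alb, which encodes serum albumin, was at 13843, 1225 and 387 in siAcly SB, against 1799.6, 2840.2 and 573 in siAcly Ut. Results are therefore given with and without Ut 15, and as the differences between the alike libraries, SB 17 minus Ut 14 and SB 85 minus Ut 84, with SB 16 minus Ut 15 for the remaining pair. The labels do not say whether libraries of a group came from separate cultures, so p-values measure only the spread between these libraries. The number series was balanced between the groups, with SB 85 and Ut 84 from the series 81 to 87. The sets of the second component were not balanced. These sets, cells and treatment cannot be fully told apart with 3 libraries a group.

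No gene passed an adjusted p of 0.05 between siAcly SB and siAcly Ut in limma with Benjamini-Hochberg adjustment over 12296 genes, and the smallest adjusted p was 0.331. Without adjustment, 1648 genes had p under 0.05 (13.4% of those tested, where 615 would be expected by chance), 839 of them higher in siAcly SB (6.82%) and 809 lower (6.58%). At the study's threshold, an unadjusted p of at most 0.05 and a log2 difference of at least 1 in size, 162 genes were higher (1.32%) and 36 lower (0.293%). The 3 values of siAcly SB all lay above the 3 of siAcly Ut for 995 genes (8.09%) and all below for 1056 genes (8.59%), and 3 libraries against 3 cannot give an exact permutation p under 0.1. Without Ut 15 the number of genes with p under 0.05 fell to 481, and without SB 16 to 748, while all 1648 genes kept their direction without Ut 15 and 387 of them kept p under 0.05. The 1648 genes were selected with Ut 15 included. For those without overlap the direction could not change, so the kept direction is no independent check. In the same limma fit, 70 genes had an unadjusted p under 0.05 for siC SB against siC Ut. There were 332 for siAcly SB against siAcly HC and 270 for siAcly SB against siAcly Bemp. Counts thus lay on both sides of 615, so 615 is no calibrated baseline here. Because no gene passed the adjusted test, higher and lower below describe the means of these libraries. Likewise, p is the unadjusted limma p unless it is called adjusted. The sets of mitotic, ribosomal and respiratory chain genes lay on different sides of the plot of all genes.

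**Figure D1:**
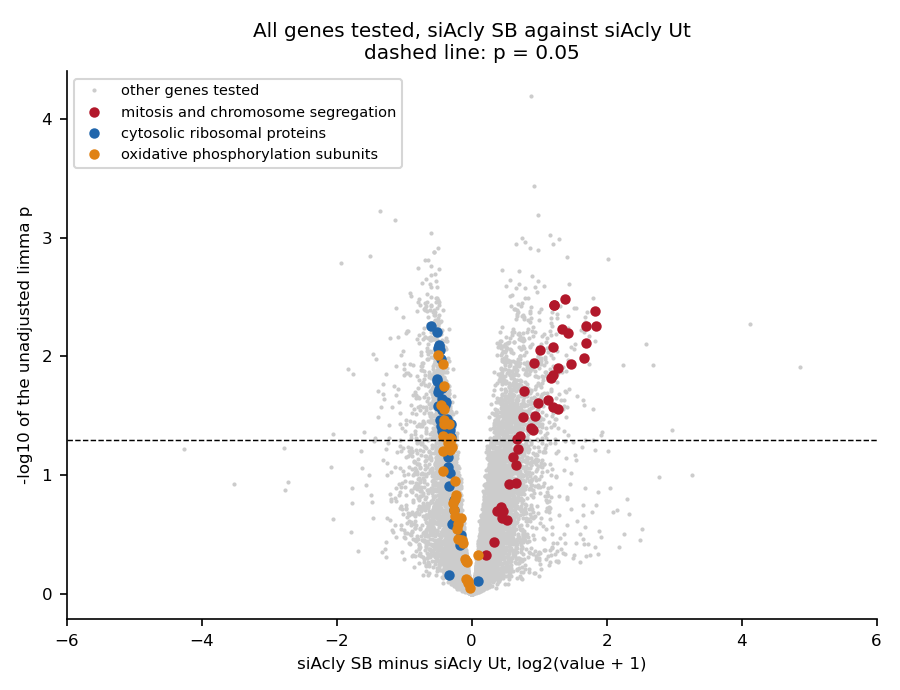
Each point is 1 of 12296 genes, with the siAcly SB minus siAcly Ut difference on the log2(value + 1) scale on the horizontal axis and −log10 of the unadjusted limma p on the vertical axis. The 40 mitosis genes (red) all lay to the right of 0, 39 of 40 ribosomal protein genes (blue) and 35 of 36 respiratory chain genes (orange) to the left.

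Acly itself, on chr11:100476353-100528000 (minus strand, mm10), was low in both groups, at 419, 599 and 324 in siAcly SB, against 376, 215 and 309 in siAcly Ut. The ranges overlapped, and the log2 difference was 0.56 with a 95% interval of −0.44 to 1.57 (adjusted p = 0.616, limma). In siC libraries Acly lay between 2576 and 3860, apart from one library labelled siC Bemp at 404, which is inside the range of the 12 siAcly libraries (215 to 599).

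The genes of mitosis and chromosome segregation were the list with the highest median. All 40 members were tested and all 40 had a higher mean in siAcly SB, where 50.5% of all genes had. Of the 40, 28 had p under 0.05 (6.82% of all genes did) and 13 did not overlap between the groups (8.09% of all genes). The median log2 difference of the list was 0.96, against 0.01 over all genes. In bulk RNA, a larger share of dividing cells and more of these mRNAs per cell cannot be told apart. Mki67, the gene of the proliferation antigen Ki-67 that coats mitotic chromosomes, was at 2802, 2157 and 4078 in siAcly SB, against 1023, 370.5 and 1940 in siAcly Ut. Every siAcly SB value thus lay above every siAcly Ut value, 3.22-fold higher on average (log2 1.69, SE 0.54, adjusted p = 0.331, limma). The log2 difference was 1.05 without Ut 15.

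Knl1 and Cenpf, both of the kinetochore, had the largest differences of the list. Knl1, the scaffold that recruits the spindle checkpoint kinase BUB1, was at 182, 115 and 200.0 in siAcly SB, against 59.5, 22.5 and 63.7 in siAcly Ut (log2 1.85, SE 0.60, p under 0.05). Cenpf, encoding a large kinetochore and nuclear matrix protein, was at 481, 374 and 796 in siAcly SB, against 209, 60.2 and 245 in siAcly Ut (log2 1.83, SE 0.57, p under 0.05). The kinetochore motor gene Cenpe was at 317, 287 and 519 in siAcly SB, against 152, 43.0 and 222 in siAcly Ut, a log2 difference of 1.66. In each of these genes SB 85 was the highest library and Ut 15 the lowest. The log2 differences without Ut 15 were 1.38 for Knl1, 1.20 for Cenpf and 0.97 for Cenpe.

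Motor proteins of mitosis were also higher. Kif11, the plus-end motor that pushes spindle poles apart, was at 1505, 1026 and 1433 in siAcly SB, against 686, 191 and 949 in siAcly Ut (log2 1.38, SE 0.42, p under 0.05, and 0.69 without Ut 15). Kif20b, a cytokinesis motor, was 3.24-fold higher, at 218 to 448 in siAcly SB and 54.6 to 133 in siAcly Ut. Kif18a, which dampens chromosome oscillation, lay at 44.3 to 82.6 in siAcly SB and 12.3 to 37.8 in siAcly Ut. Aspm, a spindle pole protein gene named for the microcephaly its loss causes in humans, was at 451, 337 and 449 in siAcly SB, against 247, 49.1 and 281 in siAcly Ut (log2 1.43, and 0.63 without Ut 15). The groups did not overlap for any of these 4 genes.

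The checkpoint kinases Ttk (log2 1.21) and Bub1 (log2 0.98) also did not overlap between the groups, as did not the spindle genes Hmmr (log2 1.22) and Nusap1 (log2 0.93) and the condensin subunit gene Ncapg (log2 0.94). Top2a, the topoisomerase that untangles sister chromatids, was at 3990 to 5542 in siAcly SB and 935 to 4244 in siAcly Ut, where Ut 84 lay above SB 17. The core mitotic regulators showed smaller differences. Ccnb1, cyclin B1, was at 1863, 1691 and 1939 in siAcly SB, against 1612, 449 and 2003 in siAcly Ut (log2 0.69, p above 0.05, and 0.02 without Ut 15). Cdk1, the kinase cyclin B1 activates, had a log2 difference of 0.37 and −0.08 without Ut 15, and Plk1, Aurka, Aurkb, Cdc20, Birc5 and Ube2c had p above 0.05 and negative differences without Ut 15. Ut 15 was the lowest library in all of these genes, with Cdk1 at 844, against 1924 to 2343 in the other 5 libraries.

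**Figure D2:**
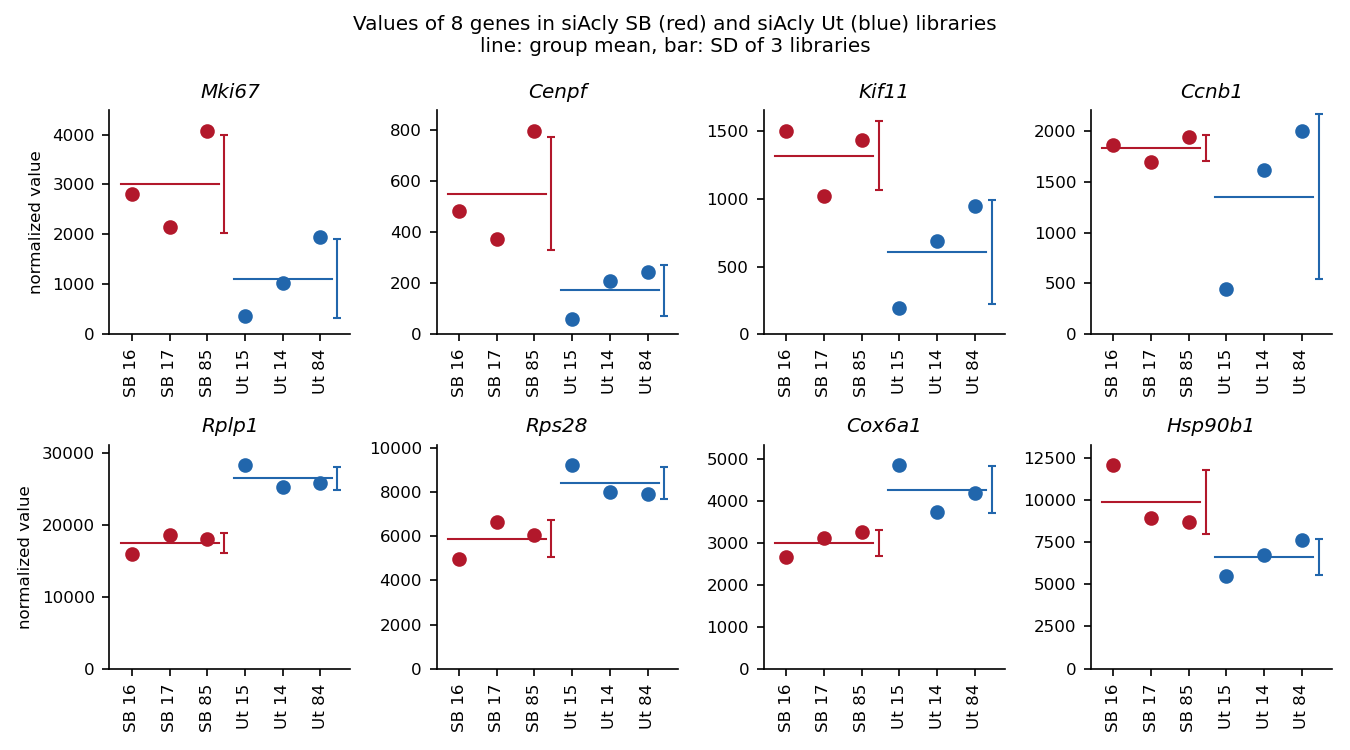
Normalized values of 8 genes in each library, siAcly SB in red and siAcly Ut in blue, with the group mean as a line and the SD of 3 libraries as a bar. Mki67, Cenpf and Kif11 were higher in every siAcly SB library than in any siAcly Ut library, Rplp1, Rps28 and Cox6a1 were lower, Hsp90b1 was higher, and Ccnb1 was at 449 in Ut 15 and 1612 to 2003 in the other 5 libraries.

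The promoters of 4 of these genes are shown because mitotic genes that peak together in the cell cycle commonly share a cell cycle genes homology region (CHR, letters TTTGAA, or TTCAAA on the other strand) and CCAAT boxes (CCAAT, or ATTGG on the other strand), which are bound by the DREAM and MMB complexes and by NF-Y. The sequences are from RefSeq on GRCm38.p6, the mm10 build, each 5′ to 3′ on the strand of its gene with the start site near the right end, and capitals mark both motifs.
Mki67 chr7:135716330-135716629 minus strand: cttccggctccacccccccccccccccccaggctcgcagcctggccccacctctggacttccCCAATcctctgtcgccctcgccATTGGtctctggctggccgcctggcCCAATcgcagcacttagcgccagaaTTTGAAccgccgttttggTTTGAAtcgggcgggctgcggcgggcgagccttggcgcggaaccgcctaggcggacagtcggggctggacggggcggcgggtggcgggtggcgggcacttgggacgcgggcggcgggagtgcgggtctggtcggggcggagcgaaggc
Cenpf chr1:189688037-189688336 minus strand: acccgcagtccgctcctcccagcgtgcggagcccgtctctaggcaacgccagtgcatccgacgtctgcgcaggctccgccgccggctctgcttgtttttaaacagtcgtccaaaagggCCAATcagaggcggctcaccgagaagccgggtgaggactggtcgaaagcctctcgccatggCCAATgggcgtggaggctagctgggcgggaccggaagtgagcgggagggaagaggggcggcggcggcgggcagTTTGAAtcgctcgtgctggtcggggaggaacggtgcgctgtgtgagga
Kif11 chr19:37376132-37376431 plus strand: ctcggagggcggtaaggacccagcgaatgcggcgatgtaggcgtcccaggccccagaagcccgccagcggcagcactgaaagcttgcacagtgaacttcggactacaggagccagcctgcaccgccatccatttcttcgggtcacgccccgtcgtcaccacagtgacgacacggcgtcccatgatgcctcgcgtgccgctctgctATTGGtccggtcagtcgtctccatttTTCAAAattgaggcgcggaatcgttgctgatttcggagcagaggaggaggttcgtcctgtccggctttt
Aspm chr1:139454523-139454822 plus strand: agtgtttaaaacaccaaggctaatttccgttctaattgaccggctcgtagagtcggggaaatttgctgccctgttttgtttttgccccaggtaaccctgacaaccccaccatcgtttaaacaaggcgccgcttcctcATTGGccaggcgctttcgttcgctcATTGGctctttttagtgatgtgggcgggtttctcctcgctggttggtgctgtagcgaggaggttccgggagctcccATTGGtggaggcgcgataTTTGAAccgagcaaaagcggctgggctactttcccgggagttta
Of the 40 mitosis genes, 36 had a promoter in the RefSeq table. A CHR lay in a promoter of 27 of the 36 (75.0%), against 20.2% of 27025 genes of the mouse genome, and a CCAAT box in 27 (75.0%), against 41.1%. Both motifs stood in one promoter for 22 genes (61.1%), against 8.0% of all genes. These are matches of letters in a window and carry no measurement of binding, and the list was not drawn up by motif.

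The size of the difference within the mitosis list went with transcript length. The 20 members with the longer transcripts (3892 to 11130 bases) had a median log2 difference of 1.25, 18 of them with p under 0.05, and the 20 with the shorter transcripts (1531 to 3703 bases) had a median of 0.68, 10 of them with p under 0.05. Without Ut 15 the medians were 0.66 for the longer and 0.14 for the shorter transcripts. Between the alike libraries the longer transcripts had medians of 0.62 (SB 17 minus Ut 14) and 0.64 (SB 85 minus Ut 84) and the shorter 0.11 and −0.01, whereas SB 16 minus Ut 15 gave 2.51 for the longer and 1.94 for the shorter. Over the whole list the medians were 0.32, 0.31 and 2.27 for these 3 pairs and 0.44 without Ut 15, when 4 of the 40 members had p under 0.05 and a higher mean, against 2.03% of all genes.

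**Figure D3:**
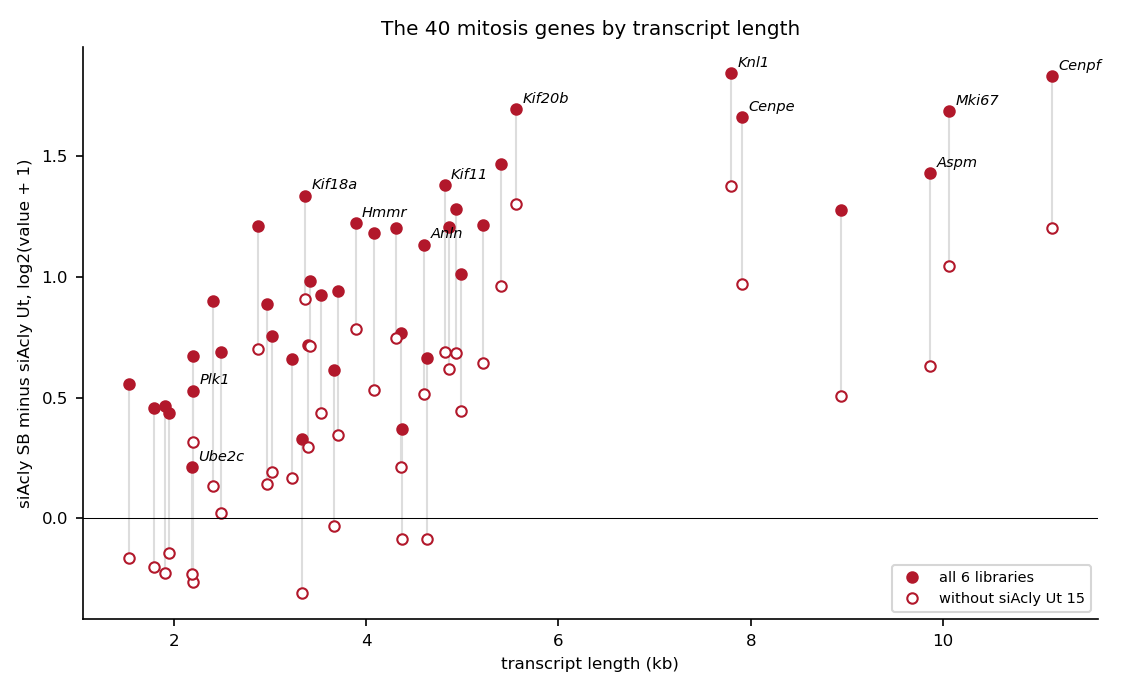
The 40 mitosis genes by transcript length (horizontal axis, kb) and siAcly SB minus siAcly Ut difference on the log2(value + 1) scale (vertical axis), filled for all 6 libraries and open without Ut 15. Filled points lay between 0.21 and 1.85, the genes with the longest transcripts stayed well above 0 without Ut 15, and 10 of the 40 open points lay below 0, all of them with transcripts under 5 kb.

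Genes of DNA replication and the G1/S transition showed a like direction with smaller differences. Of 40 members tested, 38 had a higher mean in siAcly SB, 6 with p under 0.05 (6.82% of all genes) and 2 without overlap (8.09% of all genes). Without Ut 15, 2 of the 40 had p under 0.05, against 2.03% of all genes. The median log2 difference was 0.47, which became 0.05 without Ut 15 and was −0.03 for SB 85 minus Ut 84 and 0.22 for SB 17 minus Ut 14. Pola1, the catalytic subunit of the polymerase that starts DNA strands, was at 368, 270 and 353 in siAcly SB, against 187, 108 and 202 in siAcly Ut (log2 1.03, SE 0.32, p under 0.05). Ccne2, cyclin E2, was at 131, 67.3 and 157 in siAcly SB, against 47.9, 32.8 and 57.2 in siAcly Ut (log2 1.30, p under 0.05). The groups did not overlap for these 2 genes alone in the list. The MCM helicase genes Mcm2 to Mcm7 had p above 0.05 and overlapping groups. Mcm5 was at 2206, 2305 and 3868 in siAcly SB, against 2001, 985 and 4318 in siAcly Ut. Ccnd1, cyclin D1, had a log2 difference of −0.01. Of 24 replication-dependent histone genes 8 were tested, whose transcripts are not polyadenylated in their usual form and were captured here by a poly(A) kit. Of the 8, 5 had a lower mean, and Hist1h4i had p under 0.05 (8.6 to 13.4 in siAcly SB, 19.9 to 32.7 in siAcly Ut).

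Genes of cytosolic ribosomal proteins were lower in siAcly SB. Of 40 members, all tested, 39 had a lower mean (49.5% of all genes had). Of these, 28 had p under 0.05 (6.58% of all genes did) and 31 did not overlap (8.59% of all genes), and the median log2 difference was −0.39. Rplp1, a protein of the ribosomal stalk that engages elongation factors, was at 15948, 18597 and 17998 in siAcly SB, against 25260, 28317 and 25843 in siAcly Ut (log2 −0.60, SE 0.19, adjusted p = 0.331, limma). All 3 siAcly SB values of Rplp1 lay below all siAcly Ut values. Rps28, a small subunit protein, was at 4978, 6648 and 6037 in siAcly SB, against 8015, 9226 and 7931 in siAcly Ut (log2 −0.52, p under 0.05). Without Ut 15 the list median was −0.35, and 4 of the 40 genes had p under 0.05 and a lower mean, against 1.88% of all genes. The list was lower in each pair, by medians of −0.24 for SB 17 minus Ut 14, −0.31 for SB 85 minus Ut 84 and −0.69 for SB 16 minus Ut 15. The one member with a higher mean was Rpl30 (log2 0.09). Ribosomal protein genes have many processed pseudogenes, and how the authors' counting split reads between them is not given in the sources used here.

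Subunits of oxidative phosphorylation encoded in the nucleus had a lower mean in 35 of 36 cases, 11 with p under 0.05 (6.58% of all genes) and 16 without overlap (8.59% of all genes). The median was −0.25 and, without Ut 15, −0.29 with 4 of 36 lower at p under 0.05, against 1.88% of all genes. Cox6a1, a subunit of cytochrome c oxidase, was at 2667, 3111 and 3265 in siAcly SB, against 3751, 4867 and 4199 in siAcly Ut (log2 −0.50, p under 0.05). Ndufa2, of complex I, was at 1258, 1541 and 1319 in siAcly SB, against 1869, 1786 and 1941 in siAcly Ut (log2 −0.45, p under 0.05). Ndufs1, the largest complex I subunit, was the exception with a log2 difference of 0.10. The genes of the mitochondrial genome were not analysed here. Lysosome and autophagy genes had a lower mean in 29 of 30 cases with a median of −0.25, 5 with p under 0.05 (6.58% of all genes) and 8 without overlap (8.59% of all genes). Without Ut 15, 21 of 30 had a lower mean, 1 with p under 0.05 (1.88% of all genes), with a median of −0.17. With the length and GC trend described next removed, 0 had p under 0.05, where 3.29% of all genes were lower. Hexa, a subunit of hexosaminidase, was at 1178, 1130 and 1023 in siAcly SB, against 1399, 1940 and 1345 in siAcly Ut. The cathepsin gene Ctsd was at 13951 to 19187 in siAcly SB and 15682 to 31198 in siAcly Ut (p under 0.05).

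The direction of a gene went with the length and base composition of its transcript across the genome. In the quintile of genes with the shortest transcripts (216 to 1796 bases) the median log2 difference was −0.28, with 21% of the genes lower at p under 0.05 and 0.339% higher. In the quintile with the longest transcripts (5081 to 123179 bases) it was 0.32, with 0.508% lower and 21.2% higher. By GC content, the quintile with the least GC (32.9 to 44.3%) had a median of 0.30 and the quintile with the most a median of −0.22. The same order was found in each pair of libraries: from the shortest to the longest quintile the medians ran from −0.19 to 0.25 for SB 17 minus Ut 14, from −0.22 to 0.23 for SB 85 minus Ut 84 and from −0.41 to 0.50 for SB 16 minus Ut 15. Without Ut 15 the outer quintiles had medians of −0.23 and 0.26. Transcript length and the deviation of a library from the mean of all 24 libraries had a correlation of 0.18 in SB 16, 0.11 in SB 17 and 0.22 in SB 85. In siAcly Ut it was −0.26, −0.29 and −0.05. This correlation also varied within other groups, from −0.41 to 0.13 in siAcly HC and from −0.50 to 0.24 in siAcly Bemp. It ran from −0.15 to 0.10 in siC SB and from 0.06 to 0.14 in siC Ut. Across genes, the GC content of the transcript and the deviation of a library from the mean of all 24 libraries had a Pearson r of −0.46 in SB 16, 0.20 in SB 17 and −0.09 in SB 85, against 0.32, 0.20 and 0.21 in siAcly Ut. Libraries on the side of SB 16 on the second principal component included siC Ut 1 (r = −0.48) and siC HC 7 (r = −0.50), and the part of these sets in the length, GC and mitosis values was not tested. In siC cells the medians ran the other way and were small, 0.06 in the shortest and −0.07 in the longest quintile for siC SB minus siC Ut. That comparison is not balanced for number series, since siC SB held library 81 and siC Ut none of the series 81 to 87.

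**Figure D4:**
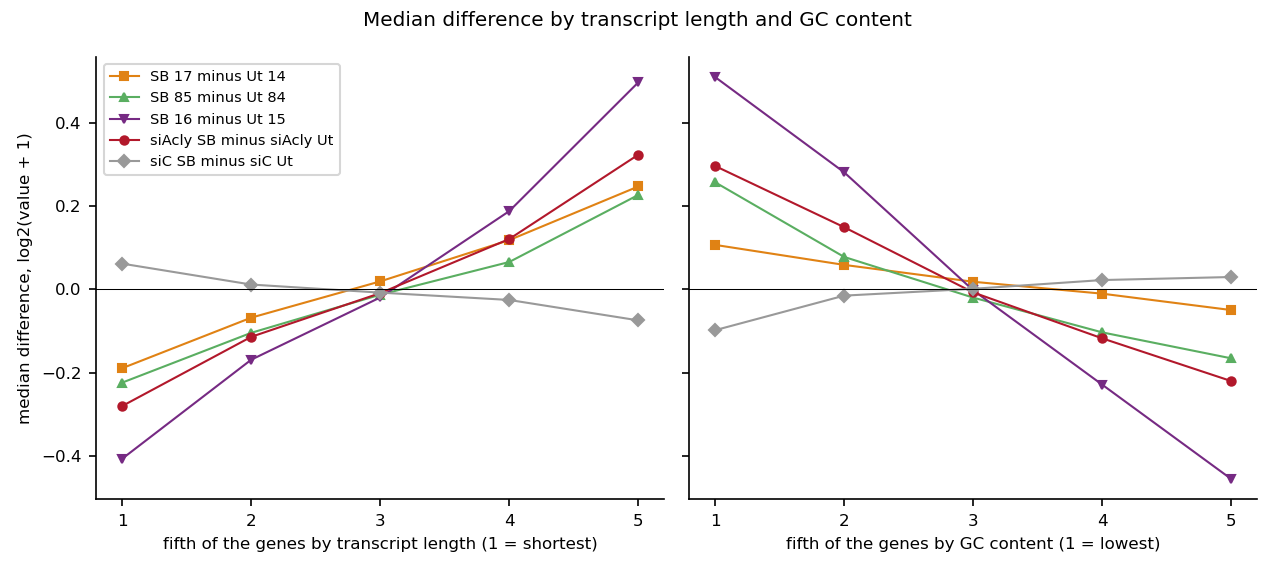
Median difference on the log2(value + 1) scale (vertical axes) in quintiles of the genes by transcript length (left) and GC content (right), for siAcly SB minus siAcly Ut, its 3 pairs of libraries and siC SB minus siC Ut. In siAcly cells each line climbed with length and dropped with GC content, and SB 16 minus Ut 15 was the steepest, at −0.41 to 0.50 over length.

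These trends bear on the lists above, whose median transcript lengths were 951 bases for ribosomal proteins, 1187 for oxidative phosphorylation, 3798 for mitosis and 3110 for all genes. After the median trend of each library over length and GC content was removed, 3 of the 40 ribosomal protein genes had p under 0.05 and a lower mean, and the list's median was −0.09. Of 36 oxidative phosphorylation genes 1 had, with a median of −0.02. Over all genes, 3.29% were lower at p under 0.05 in this setting. The mitosis list then had a median of 0.79 with 21 of 40 members at p under 0.05 and a higher mean, where 3.33% of all genes were, and its longer and shorter transcripts had medians of 0.89 and 0.65. These values keep Ut 15, and the list was not summarized with the trend removed and Ut 15 left out. Leaving out Ut 15 alone gave a median of 0.44 with 4 of 40 higher at p under 0.05. Over all genes, 781 with p under 0.05 after trend removal became 245 without Ut 15. Over all genes, 476 of 1598 with p under 0.05 and a transcript length kept p under 0.05 and their direction.

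Genes that supply or use acetyl-CoA, the product of the inhibited enzyme, differed little. Of 18 genes of acetyl-CoA supply and citrate transport, 16 had a higher mean and 1 was higher at p under 0.05 (6.82% of all genes), with a median of 0.16 and of 0.06 without Ut 15. That gene was Acaca, acetyl-CoA carboxylase 1, the first committed enzyme of fatty acid synthesis, at 1654, 2700 and 1899 in siAcly SB, against 2009, 688 and 1557 in siAcly Ut (log2 0.66, p under 0.05, and 0.20 without Ut 15). The ranges overlapped, with Ut 15 the lowest. Acss2, which makes acetyl-CoA from acetate, was at 144, 319 and 128 in siAcly SB, against 252, 79.3 and 118 in siAcly Ut (log2 0.44, p above 0.05). Slc25a1, the mitochondrial citrate carrier, was at 984, 1830 and 1126 in siAcly SB, against 1789, 1509 and 1473 in siAcly Ut (log2 −0.32, p above 0.05).

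Of 25 genes of cholesterol synthesis and uptake, 23 had a higher mean in siAcly SB and 1 was higher at p under 0.05 (6.82% of all genes), with a median of 0.30. This median rested on Ut 15: it was −0.11 without that library, when 18 of 25 genes had a lower mean, and −0.08 for SB 85 minus Ut 84, while SB 17 minus Ut 14 gave 0.43. Genes of this list were high in SB 17 and Ut 14 and low in Ut 15. The sterol demethylase gene Cyp51 was at 563, 2462 and 760.1 in siAcly SB, against 1632, 197 and 822 in siAcly Ut. Stard4, a cholesterol carrier, had p under 0.05 (573 to 1060 in siAcly SB, 201 to 858 in siAcly Ut, overlapping).

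Fatty acid and triglyceride synthesis had a median of 0.29 over 25 genes and of 0.10 without Ut 15, with 3 genes higher and 1 lower at p under 0.05 (6.82% and 6.58% of all genes). Elovl6, which elongates palmitate, was at 221, 422 and 215 in siAcly SB, against 279, 45.5 and 187 in siAcly Ut (log2 1.02, p under 0.05, and 0.25 without Ut 15). Acsl3, an acyl-CoA synthetase of lipid droplets, was at 674, 815 and 582 in siAcly SB, against 524, 275 and 557 in siAcly Ut, without overlap (log2 0.66, p under 0.05). Agpat2, which adds the second acyl chain to glycerolipids, was at 919, 935 and 875 in siAcly SB, against 1192, 1191 and 1166 in siAcly Ut (log2 −0.38, p under 0.05). The groups did not overlap, and the difference was −0.37 without Ut 15 and −0.05 (p above 0.05) with the length and GC trend removed. Fasn, fatty acid synthase, was at 3983, 11194 and 5857 in siAcly SB, against 7531, 2906 and 5629.6 in siAcly Ut, with the groups overlapping (log2 0.36, p above 0.05).

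Fatty acid oxidation and PPAR-alpha targets were mixed, with 18 of 31 higher, a median of 0.04, and 1 gene higher and 2 lower at p under 0.05 (6.82% and 6.58% of all genes). Pdk4, which restrains pyruvate dehydrogenase, was at 182, 107.3 and 78.0 in siAcly SB, against 66.6, 53.3 and 76.7 in siAcly Ut, with SB 85 only just above Ut 84 (log2 0.82, p under 0.05). Acads and Eci1, enzymes of mitochondrial beta-oxidation, were lower without overlap (log2 −0.50 and −0.45). With the length and GC trend removed, their differences were −0.12 and −0.14 (p above 0.05 for both). Among genes of gluconeogenesis and glucose handling none of 25 had p under 0.05 and the median was −0.01. Hepatocyte identity genes (32 tested, median 0.11), coagulation and fibrinolysis genes (23 tested, median 0.17) and xenobiotic cytochromes P450 (19 tested, median 0.24) had 1, 0 and 0 genes higher and 1, 0 and 1 lower at p under 0.05 (6.82% and 6.58% of all genes). Without Ut 15 their medians were 0.22, 0.53 and 0.42. Apoa1, the main apolipoprotein of high density lipoprotein, was at 5416 in SB 16, against 117 in SB 17, 50.3 in SB 85 and 68.2 to 185 in siAcly Ut. The hepatocyte factor gene Onecut1 was at 60.2, 50.5 and 23.4 in siAcly SB, against 34.8, 1.96 and 18.8 in siAcly Ut (p under 0.05). The retinol carrier gene Rbp4 was lower without overlap, at 2218 to 2861 in siAcly SB and 2941 to 5981 in siAcly Ut (p under 0.05).

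Stress response lists had lower medians with all 6 libraries and medians near 0 without Ut 15. Targets of p53 had a median of −0.28 (0.07 without Ut 15). Bbc3, the pro-apoptotic PUMA gene, was at 329, 527 and 442 in siAcly SB, against 565, 1204 and 526 in siAcly Ut (p under 0.05). Gdf15, a secreted stress cytokine, was at 142, 123 and 184 in siAcly SB, against 165, 757 and 195 in siAcly Ut (p under 0.05). One p53 target went the other way without overlap: Rrm2b, a ribonucleotide reductase subunit used in DNA repair, was at 180.4, 115 and 118 in siAcly SB, against 85.7, 68.3 and 89.9 in siAcly Ut (p under 0.05). Immediate early genes had a median of −0.31 (0.00 without Ut 15), with 5 of 26 lower at p under 0.05 (6.58% of all genes). Jund, a member of the AP-1 family, was at 1963, 2407 and 1784 in siAcly SB, against 3452, 3327 and 2590.2 in siAcly Ut (log2 −0.61, p under 0.05), and it kept a difference of −0.56 without Ut 15. ATF4 targets had a median of −0.23 (−0.04 without Ut 15), with 2 of 26 lower at p under 0.05 (6.58% of all genes). The larger of these differences was that of the transcription factor gene Cebpb, at 1595, 1774 and 1503 in siAcly SB, against 2642, 4451 and 1868 in siAcly Ut. Its log2 difference was −0.79 and, with the length and GC trend removed, −0.35 (p above 0.05).

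A subset of endoplasmic reticulum genes was higher in siAcly SB without overlap. They were 6 of 23 tested (8.09% of all genes), while none was lower without overlap, and 3 had p under 0.05 and a higher mean (6.82% of all genes). The list median was 0.07, against 0.02 without Ut 15 and 0.01 with the length and GC trend removed. Hsp90b1, the chaperone GRP94, was at 12067, 8912 and 8666 in siAcly SB, against 6718, 5513 and 7608 in siAcly Ut (log2 0.58, SE 0.23, p under 0.05). Ern1, the stress sensor IRE1, was at 282, 193 and 271 in siAcly SB, against 90.8, 117 and 173 in siAcly Ut (log2 1.00, p under 0.05). The sensor gene Eif2ak3 (log2 0.35, p under 0.05) and the genes Dnajc3, Sel1l and Canx completed the 6. Hspa5, the chaperone BiP, overlapped between the groups (13439.9 to 17750.3 in siAcly SB, 12055 to 13830.5 in siAcly Ut), as did Xbp1 and Herpud1. Of 20 cytosolic heat shock chaperone genes, Hsph1 was higher (p under 0.05) and Hspb1 and Dnajb1 were lower (p under 0.05), with a median of −0.07.

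Interferon response genes had a median of 0.10 over 41 tested, 5 of them higher at p under 0.05 (6.82% of all genes) and none lower. The median was 0.28 without Ut 15. Parp14, an ADP-ribosyltransferase induced by interferon, was at 406, 323 and 445 in siAcly SB, against 242, 233 and 259 in siAcly Ut (log2 0.67, p under 0.05). Cmpk2, a mitochondrial nucleotide kinase, was at 19.8, 27.9 and 46.9 in siAcly SB, against 17.3, 12.7 and 9.76 in siAcly Ut (log2 1.14, p under 0.05). Trim25, an E3 ligase of the RIG-I pathway, was also higher without overlap (log2 0.31, p under 0.05). Ifit2 and Eif2ak2 had p under 0.05 with overlapping groups. Isg15, a widely used interferon marker, was at 79.3, 74.8 and 222 in siAcly SB, against 81.4, 254 and 131 in siAcly Ut (log2 −0.34, p above 0.05). The list's median was 0.65 for SB 85 minus Ut 84, −0.04 for SB 17 minus Ut 14 and −0.33 for SB 16 minus Ut 15.

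The remaining lists held few genes with p under 0.05. MHC class I antigen presentation had a lower mean in 16 of 18 cases (median −0.21, −0.05 without Ut 15). Its one gene with p under 0.05, the aminopeptidase gene Erap1, was higher without overlap, at 660.4, 514 and 566 in siAcly SB, against 385, 322 and 364 in siAcly Ut. Chemokines and cytokines had a median of −0.16 (0.12 without Ut 15), with Ccl7 and Csf3 at p under 0.05 and values of 341 and 717 in Ut 15 against 35.1 to 206 in the other 5 libraries for both. NRF2 targets (24 tested, median −0.02) included Abcc2, a canalicular export pump, at 2432, 1359 and 1987 in siAcly SB, against 741, 769 and 1379 in siAcly Ut (log2 1.02, p under 0.05). Aryl hydrocarbon receptor targets (9 tested, median 0.09), hypoxia targets (17, median 0.08), circadian clock genes (17, median 0.10) and the growth hormone, STAT and SOCS axis (17, median 0.01) had no gene with p under 0.05. Matrix genes (28, median 0.09) had Timp1 lower (p under 0.05), and TGF-beta and YAP targets (23, median 0.11) had Skil, a SMAD repressor, higher (p under 0.05) and Tgfb1 lower (p under 0.05). Among markers of other cell types, of which 8 bile duct, 2 fibroblast and stellate, 2 endothelial and 2 leukocyte genes were tested, none had p under 0.05.

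The largest differences among abundant genes that did not overlap again included long transcripts. Zfp966, a KRAB zinc finger gene, was at 87.3, 98.0 and 128 in siAcly SB and at 44.9 in Ut 14, and was listed at 0 in Ut 15 and Ut 84 (log2 4.86, SE 1.77, p under 0.05). KRAB zinc finger genes have near-identical copies, so its reads may be shared with them. Zfp966 also varied within other groups, at 0, 67.0 and 0 in siC Ut 1, 2 and 13 and at 54.7, 69.0 and 0 in Bemp 22, 23 and 87. In siAcly HC it lay at 41.6 to 73.4. Zbed6, a repressor of Igf2 derived from a transposon that lies inside an intron of Zc3h11a, was at 260, 147 and 362 in siAcly SB, against 35.6, 12.2 and 135 in siAcly Ut (log2 2.58, p under 0.05). Reads of Zc3h11a and Zbed6 may not be told apart. Peg3, an imprinted zinc finger gene, was at 3867, 2780 and 3884 in siAcly SB, against 1236, 420.3 and 2262 in siAcly Ut (log2 1.72, p under 0.05). The GTPase-activating protein gene Arhgap5 was at 201, 115 and 184 in siAcly SB, against 59.2, 50.9 and 36.3 in siAcly Ut. Rif1, which directs DNA break repair and replication timing, was at 226, 168 and 299 in siAcly SB, against 70.0, 67.9 and 79.9 in siAcly Ut. Both held their size without Ut 15 (log2 1.78 for Arhgap5 and 1.58 for Rif1). With the length and GC trend removed, the log2 differences were smaller, at 1.11 for Arhgap5 and 0.99 for Rif1. They were 2.23 for Zbed6 and 1.26 for Peg3 in that setting (p under 0.05 for each of these 4 genes). The resolvase gene Gen1 (log2 1.80), the transcription elongation cyclin gene Ccnt1 (1.67), the nuclear receptor corepressor gene Lcor (1.67), the kinesin gene Kif13b (1.65) and N4bp2 (1.54) completed the 15 with Knl1, Cenpf, Kif20b, Mki67 and Cenpe.

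Among genes lower in siAcly SB, without overlap and with a mean of at least 50 in a group, Akr1b3, the aldose reductase that turns glucose into sorbitol, led, at 267, 82.8 and 283 in siAcly SB, against 683, 304 and 471 in siAcly Ut (log2 −1.31, SE 0.52, p under 0.05). It has the close paralogs Akr1b7 and Akr1b8, between which reads could be split. The muscle-type cytochrome c oxidase subunit gene Cox7a1 was at 47.1, 63.9 and 32.6 in siAcly SB, against 113, 98.0 and 68.4 in siAcly Ut (log2 −0.97). Pold4, the smallest subunit of DNA polymerase delta, was at 572, 701 and 751 in siAcly SB, against 799, 2891 and 935 in siAcly Ut (log2 −0.95, and −0.37 without Ut 15). The small nucleolar RNA host genes Zfas1 (log2 −0.99), Snhg12 (−0.96) and Snhg20 (−0.92), noncoding genes whose introns carry small nucleolar RNAs, were likewise highest in Ut 15, at 2291, 379 and 265, and without that library their differences were −0.40, −0.44 and −0.34. Tmem42 (−1.12), Rem2 (−1.05), Scand1 (−0.92) and Flywch2 (−0.91) completed the 10. With the length and GC trend removed, p was above 0.05 for Akr1b3 (−1.06), Cox7a1 (−0.58), Pold4 (−0.51) and Flywch2 (−0.42). Tmem42 (−0.81), Rem2 (−0.83) and Scand1 (−0.37) kept p under 0.05, and the noncoding genes had no value in that setting.

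The smallest p-values belonged to genes that none of the lists held. Tnik, a kinase of the Wnt pathway, was at 115, 116 and 129 in siAcly SB, against 67.4, 61.6 and 65.6 in siAcly Ut (log2 0.88, SE 0.18, adjusted p = 0.331, limma), and its difference was 0.84 without Ut 15. Wrn, the helicase gene mutated in Werner syndrome, was at 249.2, 182 and 226 in siAcly SB, against 103, 99.7 and 143 in siAcly Ut (log2 0.93, p under 0.05). Tbl1x, a subunit of the NCoR corepressor complex, was at 678, 523 and 643 in siAcly SB, against 284, 243 and 429 in siAcly Ut (log2 0.98, p under 0.05). Prr7 and the antisense gene Rap1gapos were lower (log2 −1.36 and −1.14), with Prr7 at 16.0, 15.5 and 20.2 in siAcly SB, against 38.4, 53.4 and 46.0 in siAcly Ut. With the length and GC trend removed, Tnik had a difference of 0.40 (p under 0.05) and Tbl1x one of 0.68 (p under 0.05).

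Whether SB acted otherwise in siAcly than in siC cells was tested as the difference between the 2 SB effects, which share no library. siC Ut held no library of the series 81 to 87, whereas siC SB 81, SB 85 and Ut 84 came from it. The SB effect in siC cells, and so this difference, cannot be told apart from the number series. No gene passed an adjusted p of 0.05 (smallest 0.560, limma with Benjamini-Hochberg adjustment), and 1038 genes had an unadjusted p under 0.05 (8.44%), 508 with a higher SB effect in siAcly cells (4.13%) and 530 with a lower one (4.31%). In siC cells alone 0 genes passed the adjusted test and 70 had an unadjusted p under 0.05 in limma, under the 615 expected by chance. The count for the difference fell to 480 without SB 16, 560 without Ut 15, 547 without siC SB 81 and 665 without siC Ut 13. Ribosomal protein genes were lower in 21 of 40 cases at p under 0.05, with a median difference of −0.57 between the effects, and mitosis genes were higher in 8 of 40, with a median of 0.89. Rplp1 was at 21594, 18014 and 24777 in siC SB 4, 5 and 81, against 17239, 19581 and 18807 in siC Ut 1, 2 and 13. Its SB effect differed by −0.80 on the log2 scale (95% interval −1.37 to −0.23, p under 0.05). Mki67 was at 2143, 975 and 2230 in siC SB 4, 5 and 81, against 3189, 623 and 1977 in siC Ut 1, 2 and 13, a log2 difference of 0.08 in siC cells. Its effects differed by 1.61 (95% interval 0.00 to 3.21, p under 0.05). Junb, an AP-1 gene, was lower with SB in siAcly cells (log2 −0.47) and had a difference of 0.27 in siC cells, and the effects differed by −0.74 (p under 0.05). Among genes with p under 0.05 for the difference of effects, a mean of at least 50 and no overlap between siAcly SB and siAcly Ut, the largest differences were those of Zbed6 (2.95), Lcor (2.33), Kif13b (2.21), Ccnt1 (2.17) and Nbeal1 (2.04). Lcor was at 41.8, 47.8 and 41.3 in siC SB 4, 5 and 81, against 67.7, 63.8 and 78.9 in siC Ut 1, 2 and 13.

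The libraries labelled siC Ut 13 and siC Bemp 11 bear on this comparison. The library labelled siC Ut 13 had Cyp1a1, a target of the aryl hydrocarbon receptor, at 917, against 195 and 200.2 in the other siC Ut libraries and 1075 and 1255 in siC Bemp 83 and 10. The library labelled siC Bemp 11 had Cyp1a1 at 236 and Acly at 404. Labels were kept as given, and without both libraries 645 genes had an unadjusted p under 0.05 for the difference of the SB effects.

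The other ACLY inhibitors were given to siAcly cells for the same 16 h but at other doses, HC at 1000 µM and Bemp at 30 µM against SB at 10 µM, so the values stand side by side. SB, HC and Bemp are structurally different inhibitors, HC a hydroxylated citrate and Bemp a dicarboxylic acid. siAcly SB against siAcly HC gave 0 genes at an adjusted p of 0.05 and 332 at an unadjusted p under 0.05 (2.7%), and siAcly SB against siAcly Bemp 0 and 270 (2.2%, limma), both under the 615 expected by chance. These counts depended on single libraries. Against HC they were 112 without HC 19, 125 without HC 20, 114 without SB 16, 214 without SB 85, 550 without SB 17 and 893 without HC 86. Against Bemp they were 57 without Bemp 22, 146 without SB 16, 502 without SB 17 and 1138 without Bemp 87. Mki67 was at 2802, 2157 and 4078 in siAcly SB, beside 1676, 2080 and 2810 in siAcly HC and 1818, 2434 and 4044 in siAcly Bemp. Its difference had 95% intervals of −0.69 to 1.58 for SB minus HC and −0.98 to 1.29 for SB minus Bemp on the log2 scale. The median of the mitosis list was 0.17 for SB minus HC and 0.11 for SB minus Bemp. The median of ribosomal proteins was −0.34 for SB minus HC and −0.27 for SB minus Bemp. The trend with transcript length was there as well, with medians of −0.21 in the shortest and 0.26 in the longest quintile for SB minus HC, and of −0.20 and 0.24 for SB minus Bemp. Rplp1 was at 15948, 18597 and 17998 in siAcly SB, beside 22641, 26923 and 20379 in siAcly HC and 29497, 21203 and 21827 in siAcly Bemp, without overlap.

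Cyp1a1 showed the largest difference between siAcly SB and siAcly Bemp among genes named for that comparison, at 241, 94.8 and 360 in siAcly SB, against 1095, 678 and 753 in Bemp 22, 23 and 87 (log2 −2.02, 95% interval −3.46 to −0.58). In siAcly Ut it was at 142, 169 and 441. Hk2, hexokinase 2, was at 200.2, 314 and 285 in siAcly SB, against 115, 161 and 186 in Bemp 22, 23 and 87 (log2 0.79, p under 0.05). Zfpm2 was higher (log2 0.84) and Akr1b3 lower (log2 −1.17) in siAcly SB than in siAcly Bemp, and Rps27 was at 15.5 to 24.7 in siAcly SB and at 33.9, 33.8 and 326 in Bemp 22, 23 and 87. Against HC, Nrip1, a nuclear receptor corepressor of fat metabolism, was at 372, 175 and 295 in siAcly SB, against 132, 91.2 and 172 in HC 19, 20 and 86 (log2 1.06, p under 0.05). Nos1ap was higher (log2 1.09) and Snurf and Dynlt1f were lower (log2 −1.22 and −1.05) in siAcly SB than in siAcly HC. The histone gene Hist1h2br, one of many near-identical copies, was at 0, 0.406 and 0.721 in siAcly SB and at 59.1 to 111 in siAcly HC, and it varied from 0 to 126 within siAcly Ut.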

How the data were processed

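RNA was measured in 24 AML12 libraries (8 groups of 3). Per the labels and the methods of the study, column-purified RNA went into a stranded poly(A) ligation kit and onto a NovaSeq. Trimming by the authors used FASTQ toolkit 1.0.0, and alignment to mm10 used RNAseq Alignment 2.0.2, which runs STAR. The authors deposited a signal per gene, which the study describes as counts normalized by the median of ratios in the DESeq2 Illumina package 1.1. Division by size factors alone would give a read the same value in every gene of a library. The value of 1 read differed between genes, so whole reads could not be recovered. For that reason no count test was run and no interval covers counting error.

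Values were tested as log2(value + 1), a scale that understates differences of low genes, for the 12296 of 24972 genes that reached 10 in 3 or more libraries, in R 4.3.3 with limma 3.58.1 (1 mean per group, all 8 groups sharing the spread, two-sided moderated test, Benjamini-Hochberg adjustment), which was tested on simulated data. The comparison and the 34 gene lists were proposed with earlier results of these data known, and libraries were assigned to groups by their labels alone. Named genes were Acly, the 15 largest positive and 10 largest negative differences with p under 0.05, no overlap and a mean of at least 50 (predicted genes, pseudogenes and small RNAs left out), the 5 smallest p, up to 2 genes per list and direction with p under 0.05 (otherwise its most abundant), and the 5 largest differences of each further comparison. Other members of lists were named for their known role after their values were seen. Transcript lengths are from GENCODE M21 (GRCm38). The alternatives tried were other filters, pseudocounts, normalizations, groups, covariates, weights and left-out libraries. A factor of 3 library sets that the labels do not name (numbers 81 to 87, and the others by the sign of the second principal component of these values), the length and GC trend (20 bins each) and the pairs of alike libraries were added after seeing the data. Liver, soleus and gastrocnemius files were not used.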

Additional observations from a re-analysis of the deposited data

How the results depend on the processing

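No alternative gave a gene at an adjusted p of 0.05 in limma in any of the 4 comparisons. For siAcly SB against siAcly Ut, the 1648 genes with an unadjusted p under 0.05 became 2647 with the factor of 3 library sets, which were formed from principal components of the same values,, 781 with the length and GC trend removed and 245 when Ut 15 was also left out, and 481 to 2188 on leaving out 1 library. The 198 genes beyond the study's threshold became 381 with no limit on low values, 122 with array quality weights, 119 with the set factor and Ut 15 left out, 68 with the length and GC trend removed, 29 when Ut 15 was also left out, 0 with adjusted p, and 67 to 478 without 1 library. The 1038 genes whose SB effects differed became 645 without siC Bemp 11 and siC Ut 13, 2081 with the set factor, 459 with the trend removed, 305 when Ut 15 was also left out, and 480 to 1462 without 1 library. Against HC, 332 genes became 527 with no limit on low values, 602 with the number series as a covariate, 1451 with weights, 974 with the set factor, 1352 when Ut 15 was also left out, 148 with the trend removed, 179 when Ut 15 was also left out, and 112 to 893 without 1 library. Against Bemp, 270 genes became 478, 518, 548, 1009, 1458 and 152 under the first 6 of these settings and 57 to 1138 without 1 library. The cause was not tested.

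With the length and GC trend removed and Ut 15 left out, the log2 difference changed sign for Pold4 (0.020), Acaca (−0.090), Stard4 (−0.20), Elovl6 (−0.12), Gdf15 (0.10), Atf5 (0.18), Hspb1 (0.14), Rbp4 (0.0080) and Cox6a1 (0.024), and Stard4 was at −0.075 for SB 85 minus Ut 84. All 71 named genes with p under 0.05 kept their direction without Ut 15, and 27 of them kept p under 0.05. These genes were picked from the same 6 libraries. For those without overlap the direction could not change, so the kept direction is no independent check. No paired analysis was possible because the labels of the AML12 libraries give no replicate numbers, and the pairs of libraries above were formed by likeness of their values. The values carry no counts, so depth limits low genes to an unknown degree.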

Other observations

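Between the alike libraries, which share no sample, 219 of 10402 genes with a mean of at least 50 were higher by at least 0.5 on the log2 scale in both SB 17 minus Ut 14 and SB 85 minus Ut 84, and 51 were lower by as much in both. No number expected by chance was computed for these counts. Both pairs held the length trend, with medians of 0.25 and 0.23 in the longest quintile and −0.19 and −0.22 in the shortest. The part of that trend in these counts was not tested. The spread of single genes was wider in the remaining pair, with an SD over genes of 0.91 for SB 16 minus Ut 15, against 0.43 for SB 17 minus Ut 14 and 0.51 for SB 85 minus Ut 84.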
